A study of Mus musculus with 6 samples.

Results

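The genes of the proteasome, the protease that takes apart proteins marked with ubiquitin, were compared in liver between mice of the Balb/cBy and Balb/c substrains. Members were the genes whose annotated symbol is Psm followed by a letter from a to g and a number, each represented by its probe set of highest mean. The rule found 49 genes among 22180 with a probe set of 1 symbol. Of these, 47 encode subunits, activators, inhibitors or assembly factors of the proteasome. Psmc3ip, a cofactor of meiotic recombination, and Psme3ip1, a binding partner of an activator, match by symbol alone. A RefSeq gene table held 51 protein-coding genes that match the rule. Psma4 has no probe set of its own in the annotation and Psme2b was not listed in it, so neither was analysed here.

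The Balb/cBy group and the Balb/c group had 3 arrays each, from the livers of males aged 20 weeks, after 12 weeks on a diet with 58% of energy as fat begun at 8 weeks. The Balb/cBy mice are called KD in the labels, which name no gene for that term, and the Balb/c mice WT. The BALB/cBy substrain is known for a spontaneous deletion in Acads, a mitochondrial acyl-CoA dehydrogenase. Values are log2 RMA levels, made by background correction, quantile normalization and probe summary, and a level on one probe set cannot be set against that on another. Array medians over tested probe sets lay between 7.98 and 8.03, and array correlations over genes between 0.977 and 0.992. The hepatocyte markers Alb, Ttr, Apoa1, Cps1, Hnf4a and Tat averaged 13.24 to 13.40 on the Balb/cBy arrays and 13.22 to 13.36 on the Balb/c arrays. A level of 8.02, the 95th percentile of 1105 olfactory receptor genes, served as a stand-in for background, and 45 of the 49 members lay above it.

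The core particle is a barrel of stacked rings. Outer rings of alpha subunits gate the entry, and inner rings of beta subunits hold the proteolytic sites. The cap recognizes ubiquitin, unfolds the substrate with a ring of ATPases and feeds it into the barrel. Interferon gamma replaces the catalytic subunits with inducible ones, forming the immunoproteasome, which favours peptides for MHC class I. When proteasome activity falls short, the transcription factor Nfe2l1 raises the subunit genes together through antioxidant response elements. In liver, hepatocytes make the constitutive form and immune cells much of the inducible form. In whole tissue, fewer cells of a type and less RNA per cell cannot be told apart.

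Promoter windows of 300 bases, 250 before and 50 from the annotated start, were available from RefSeq (GRCm38.p6) for 41 of the 49 members, some with more than 1 window. The following 6 are shown as examples. Psma1 and Psmd13 had the smallest p-values among the members, Psmb5 and Psmb6 are constitutive catalytic genes with an antioxidant response element core, and Psmb8 and Psmb9 are the inducible catalytic genes beside Tap1. Capitals mark matches to any of 4 motifs on either strand.
Psma1 (chr7:114276067-114276366, minus strand): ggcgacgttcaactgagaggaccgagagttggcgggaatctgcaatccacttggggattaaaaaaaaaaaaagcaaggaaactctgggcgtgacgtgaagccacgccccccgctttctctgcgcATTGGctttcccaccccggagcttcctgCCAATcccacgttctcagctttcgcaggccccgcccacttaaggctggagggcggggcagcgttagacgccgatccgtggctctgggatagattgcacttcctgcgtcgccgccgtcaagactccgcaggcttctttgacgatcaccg
Psmd13 (chr7:140882144-140882443, plus strand): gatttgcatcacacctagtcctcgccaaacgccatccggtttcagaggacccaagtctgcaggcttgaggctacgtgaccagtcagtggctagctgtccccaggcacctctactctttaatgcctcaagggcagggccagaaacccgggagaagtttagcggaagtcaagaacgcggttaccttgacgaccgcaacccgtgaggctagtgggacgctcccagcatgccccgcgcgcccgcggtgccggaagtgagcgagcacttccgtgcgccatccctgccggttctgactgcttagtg
Psmb5 (chr14:54617946-54618245, minus strand): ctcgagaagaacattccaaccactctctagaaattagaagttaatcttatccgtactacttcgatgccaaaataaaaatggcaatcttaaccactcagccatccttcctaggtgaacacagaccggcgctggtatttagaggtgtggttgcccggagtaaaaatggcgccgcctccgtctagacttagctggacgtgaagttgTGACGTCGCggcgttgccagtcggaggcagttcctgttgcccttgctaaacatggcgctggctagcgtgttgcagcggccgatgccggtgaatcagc
Psmb6 (chr11:70525107-70525406, plus strand): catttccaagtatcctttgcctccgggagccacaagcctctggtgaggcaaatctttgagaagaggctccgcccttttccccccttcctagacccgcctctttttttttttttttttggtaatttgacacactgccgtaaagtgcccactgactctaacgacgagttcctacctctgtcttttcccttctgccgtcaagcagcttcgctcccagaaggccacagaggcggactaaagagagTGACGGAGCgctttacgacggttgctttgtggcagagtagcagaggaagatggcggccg
Psmb8 (chr17:34197945-34198244, plus strand): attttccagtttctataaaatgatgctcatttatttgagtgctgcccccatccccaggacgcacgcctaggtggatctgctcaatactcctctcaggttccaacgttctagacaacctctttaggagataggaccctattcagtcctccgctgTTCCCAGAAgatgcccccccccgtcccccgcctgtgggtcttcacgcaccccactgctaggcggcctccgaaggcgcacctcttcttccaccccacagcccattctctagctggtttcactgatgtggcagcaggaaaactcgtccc
Psmb9 (chr17:34187281-34187580, minus strand): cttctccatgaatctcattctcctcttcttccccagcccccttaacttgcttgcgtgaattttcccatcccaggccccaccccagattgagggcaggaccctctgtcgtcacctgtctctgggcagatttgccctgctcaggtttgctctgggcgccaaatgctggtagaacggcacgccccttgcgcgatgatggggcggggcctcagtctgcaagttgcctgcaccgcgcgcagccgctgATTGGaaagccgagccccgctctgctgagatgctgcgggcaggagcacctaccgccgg
The antioxidant response element core TGACNNNGC begins 47 bases before the start in Psmb5 (TGACGTCGC) and 9 bases before it in Psmb6 (TGACGGAGC). The GAS element TTCNNNGAA, a STAT site, matched in Psmb8 as TTCCCAGAA. The CCAAT box matched at 2 places in Psma1 and at 1 in Psmb9, and no match overlapped another in the windows shown. Psmd13 held none of the 4 motifs, the last of them being the interferon-stimulated response element.

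Over the 45 windows of the members, the antioxidant response element core was found in 13.3%, beside 12.4% of all 32851 windows of the same length. The CCAAT box was found in 35.6% beside 37.4%, and the GAS element in 6.67% beside 8.3%. The interferon-stimulated response element was found in 11.1% of the members' windows, 5 of 45, and in 3.44% of all windows. Its 5 genes were Psmb3, Psmd4, Psmd9, Psme1 and Psmg4, of which Psme1 is known to be inducible by interferon. The 6 genes with the antioxidant response element core had a median difference between the substrains of 0.05, and the 35 members with a window and no match 0.11. These matches are letters in a window and were not tested as binding sites.

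None of the 49 members differed between the substrains past limma's adjusted p of 0.05. The smallest adjusted p of a member was 0.999. Over all 23521 probe sets tested 0 passed (0%), with 899 at an unadjusted p under 0.05, where 1176 would be expected by chance. With differences taken as the Balb/cBy mean minus the Balb/c mean on the log2 scale, the median was 0.10 over the 49 members, against -0.0028 over all 22180 genes. Of the members 37 were higher and 12 lower in Balb/cBy, or 75.5% higher, where the share over all genes was 49.1% and that over the 11240 genes above the olfactory receptor level 56.8%. Single differences ran from -0.15 to 0.40. Without Psmc3ip and Psme3ip1, 36 of 47 were higher and the median was unchanged at 0.10. Cell type markers differed in direction from list to list. Of the 15 leukocyte markers 5 were higher and 10 lower, with a median of -0.13, and hepatocyte markers split 3 to 3. The groups did not overlap in 3 leukocyte markers that were lower, Nkg7, Cd79a and Ms4a1, and in 1 that was higher, S100a8. Among them only Nkg7 lay above the olfactory receptor level, at -0.24 ± 0.09 (SE), and none passed the adjusted test. The 4 stellate cell markers were all higher, with a median of 0.35. They averaged 9.68 to 9.92 in Balb/cBy livers and 9.31 to 9.72 in Balb/c livers. Of these, Dcn and Lum did not overlap between the groups, at 0.48 ± 0.14 and 0.53 ± 0.12 (SE), and neither passed the adjusted test. The groups overlapped in Lrat and Col1a1, and Col1a1 differed by less than its SE. The 3 endothelial markers were all higher too, averaging 9.48 to 9.82 in Balb/cBy livers and 9.49 to 9.64 in Balb/c livers. The part of these cells in the lean of the members was not tested.

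The lean toward higher values in Balb/cBy depended on single mice. Without Balb/c replicate 2 the median fell to 0.024 with 31 of 49 members higher, and without Balb/cBy replicate 2 to 0.043 with 30 higher. Without Balb/c replicate 1 it was 0.17 with 39 higher. After renewed quantile normalization the split was 31 higher to 18 lower and the median 0.040, so this scaling too moved both.

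The arrays set a bound on each difference. The 95% interval of the difference lay inside a 2-fold change in either direction for all 49 members, and inside a 1.5-fold change for 39. Of all 22180 genes, 19675 had an interval inside 1.5-fold. The 10 members whose interval reached past 1.5-fold included all 3 inducible catalytic genes. The widest upper bound was 0.81, for Psmd14, and the lowest lower bound -0.77, for Psmb10. These intervals hold for each gene taken alone, and RMA understates the differences of dim genes.

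**Figure D1:**
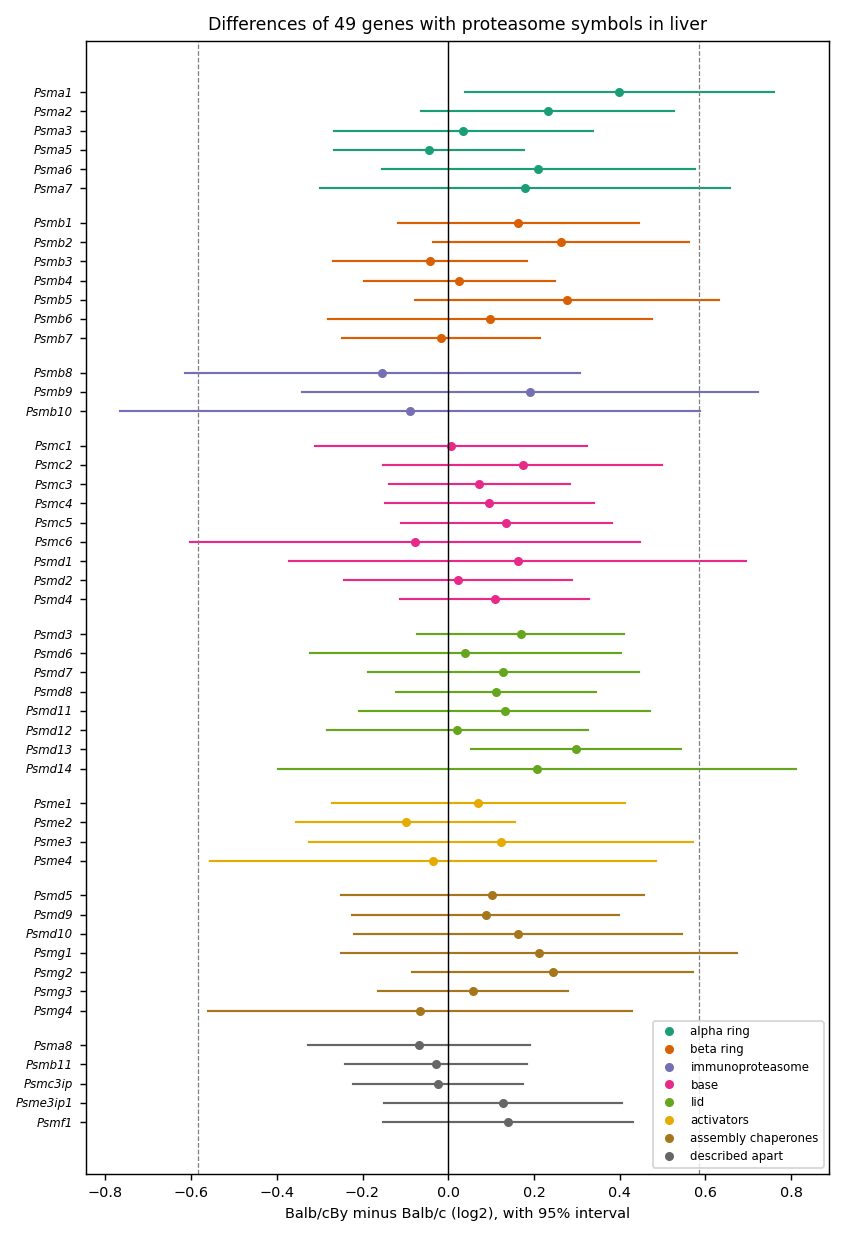
Log2 difference of each of the 49 members, taken as Balb/cBy minus Balb/c (points), with its 95% interval from limma (lines), ordered by role; dashed lines mark a 1.5-fold change. The points run from -0.15 to 0.40, most lie to the right of 0, and only the intervals of Psma1 and Psmd13 leave out 0.

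At an unadjusted p under 0.05, 2 of the 49 members were higher in Balb/cBy and 0 lower. Among all genes 2.59% were higher at that p and 1.15% lower, so 2 of 49 is close to the background. The count was 0 without Balb/cBy replicate 2 or Balb/c replicate 2 and 7 without Balb/cBy replicate 1. It was 1 without Balb/cBy replicate 3 or Balb/c replicate 3. The groups did not overlap in 2 members, Psmd13 and Psmb2, both higher in Balb/cBy, and in 0 members lower, where 4.32% of all genes were higher and 3.51% lower without overlap.

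In the alpha ring, 5 of 6 measured genes were higher in Balb/cBy, with a median difference of 0.19, and 0 passed the adjusted test. Leaving out Balb/c replicate 2 gave a median of 0.097, leaving out Balb/cBy replicate 2 gave 0.11, and leaving out Balb/cBy replicate 3 gave 0.12. Psma1, which encodes subunit α6, had levels of 10.83, 10.70 and 10.55 in Balb/cBy livers, against 10.16, 10.08 and 10.64 in Balb/c livers. Balb/c replicate 3 lay inside the range of the Balb/cBy mice, so the groups overlapped. The difference was 0.40 ± 0.16 (SE), a level 1.32 times that of Balb/c, with an unadjusted p of 0.0338 in limma and an adjusted p of 0.999. It was the largest difference of the 49 members. By p it ranked 523rd of 22180 genes.

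Psma2 (α2) read 9.53, 9.84 and 9.89 in Balb/cBy livers and 9.68, 9.39 and 9.49 in Balb/c livers, a difference of 0.23 ± 0.13 (SE). Balb/cBy replicate 1 fell among the Balb/c values. Psma6 (α1) read 10.45, 10.51 and 10.39 in Balb/cBy livers, against 10.35, 9.87 and 10.50 in Balb/c livers, so that Balb/c replicate 2 alone stood below the rest. Its difference of 0.21 ± 0.16 (SE) was 0.024 without that mouse. Psma7 (α4) differed by 0.18 ± 0.21 (SE), with Balb/cBy replicate 1 lowest of all at 9.52, and leaving out 1 mouse took it from 0.043 (without Balb/cBy replicate 2) to 0.44 (without Balb/cBy replicate 1). Psma5 (α5) lay under the olfactory receptor level on both of its probe sets, which differed in sign, at -0.04 ± 0.10 and 0.18 ± 0.15 (SE). The remaining member, Psma3 (α7), had overlapping groups.

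In the constitutive beta ring, 5 of 7 genes were higher in Balb/cBy, with a median of 0.10. Psmb5, the chymotrypsin-like catalytic subunit β5, read 11.81, 11.87 and 11.96 in Balb/cBy livers and 11.96, 11.41 and 11.43 in Balb/c livers. Balb/c replicate 1 was as high as the highest Balb/cBy mouse, and the other Balb/c mice were lower. The difference was 0.28 ± 0.15 (SE), and it was 0.46 without Balb/c replicate 1, 0.18 without Balb/c replicate 2 and 0.19 without Balb/c replicate 3. Psmb6, the caspase-like subunit β1, read 9.44, 9.90 and 10.03 in Balb/cBy livers, against 9.85, 9.69 and 9.53 in Balb/c livers, and differed by 0.10 ± 0.16 (SE). Psmb7, the trypsin-like subunit β2, differed by -0.02 ± 0.10 (SE), with an interval from -0.25 to 0.21.

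Of the beta subunits without a proteolytic site, Psmb2 (β4) read 10.58, 10.97 and 10.62 in Balb/cBy livers and 10.57, 10.33 and 10.49 in Balb/c livers. The groups did not overlap, though the lowest Balb/cBy mouse and the highest Balb/c mouse were nearly equal. Its difference was 0.26 ± 0.13 (SE). Psmb1 (β6) differed by 0.16 ± 0.12 (SE), and Psmb3 (β3) and Psmb4 (β7) by less than their standard errors. Pseudogenes named for Psma5, Psmb5, Psmb6 and Psmb7 stand in the RefSeq table, and signal from such copies was not separated here.

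The 3 immunoproteasome genes shared their lowest mice, and none of them passed the test between the substrains. Psmb8, the inducible β5i, read 9.10, 9.45 and 9.32 in Balb/cBy livers, against 9.44, 9.86 and 9.03 in Balb/c livers. Psmb9, the inducible β1i, read 8.58, 9.49 and 9.001 in Balb/cBy livers, against 8.95, 9.03 and 8.51 in Balb/c livers. Psmb10, the inducible β2i, read 9.48, 10.11 and 10.26 in Balb/cBy livers, against 10.44, 10.28 and 9.40 in Balb/c livers. In all 3 genes Balb/c replicate 3 was the lowest of the 6 mice and Balb/cBy replicate 1 the next lowest, while the highest mouse differed from gene to gene. The differences were -0.15 ± 0.20, 0.19 ± 0.23 and -0.09 ± 0.29 (SE) in the same order, with a median of -0.09. The sign of the median rests on single mice, since it was 0.15 without Balb/cBy replicate 1, 0.11 without Balb/c replicate 1 and 0.055 without Balb/c replicate 2.

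The spread of these genes within groups was wide, with a median SD of 0.38 beside 0.19 for the 49 members and 0.14 for all genes. Relative to the mean of all 6 arrays, the 3 genes averaged -0.38, 0.25 and 0.10 in Balb/cBy livers, against 0.18, 0.29 and -0.45 in Balb/c livers. The gap between the lowest and highest mouse within Balb/c was therefore larger than any difference between the substrain means. Balb/cBy replicate 1 and Balb/c replicate 3 were also the arrays of lowest quality weight in limma, at 0.471 and 0.635, beside 0.805 to 2.47 on the others.

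As a list, the leukocyte markers were also lowest in Balb/c replicate 3. The 15 measured of 16 markers averaged 7.90 to 7.98 in Balb/cBy livers and 7.79 to 8.15 in Balb/c livers, with the lowest mean in Balb/c replicate 3 and the highest in Balb/c replicate 2. Of the 15, 7 lay under the olfactory receptor level, among them Cd3d, Cd8a, Cd79a and Ly6g. Adgre1, the macrophage marker F4/80, read 8.92, 9.47 and 9.61 in Balb/cBy livers, against 9.77, 10.26 and 9.08 in Balb/c livers. Adgre1 and Clec4f, a Kupffer cell marker, were the 2 markers of the 15 whose lowest mice were the same pair as for the immunoproteasome genes. That pair was also lowest in 2 of 3 endothelial markers, Pecam1 and Cdh5, and in 1 of 6 hepatocyte markers, Apoa1. It was lowest in 0 of 4 stellate cell markers. Balb/c replicate 3 was the lowest mouse in 5 of the 15 leukocyte markers and the highest in 2, Ptprc and Ms4a1. The part of these cells in the result was not tested.

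**Figure D2:**
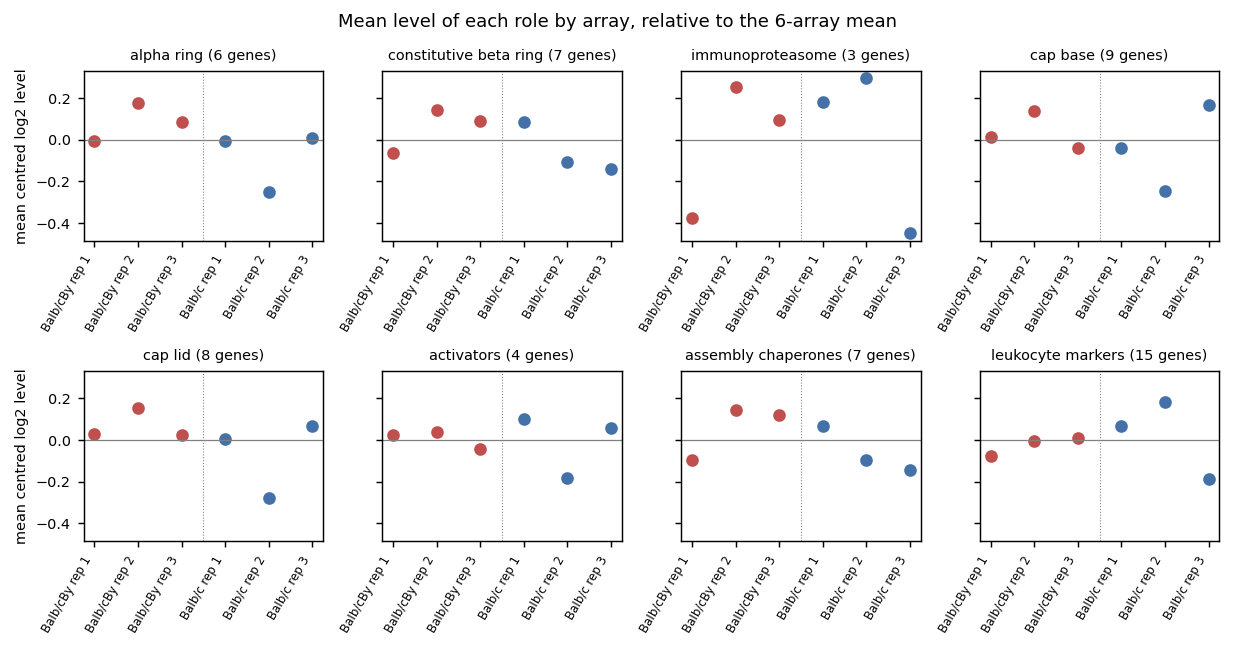
Mean log2 level of the genes of each role on each array, after the mean of each gene over the 6 arrays was subtracted; red points are Balb/cBy mice and blue points Balb/c mice, 1 point per mouse. The immunoproteasome panel has its low points at Balb/cBy replicate 1 (-0.38) and Balb/c replicate 3 (-0.45), while the alpha ring, base and lid have theirs at Balb/c replicate 2 (-0.25, -0.24 and -0.28). The constitutive beta ring and the assembly chaperones are also lowest at Balb/c replicate 3 (-0.14 in both).

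Genes next to the immunoproteasome in antigen processing did not pass the test between the substrains either. In the RefSeq order Psmb9 is followed by Tap1, Psmb8 and Tap2, the Tap genes encoding the transporter that carries peptides into the endoplasmic reticulum. Tap1 read 9.09, 9.67 and 9.34 in Balb/cBy livers, against 9.19, 9.64 and 9.27 in Balb/c livers, and differed by 0.00043 ± 0.17 (SE). Tap2 differed by -0.0062 ± 0.12 (SE). Of 13 measured genes of 14 listed for antigen processing and interferon signalling, 8 were higher and 5 lower, with a median of 0.0040 and 0 past the adjusted test. Calr, the chaperone calreticulin, read 13.01, 12.81 and 12.83 in Balb/cBy livers and 12.69, 12.62 and 12.67 in Balb/c livers, without overlap, at 0.22 ± 0.09 (SE). Its unadjusted p in limma was 0.0455. Pdia3, a disulfide isomerase of peptide loading, differed by 0.26 ± 0.18 (SE), and Nlrc5, a transactivator of MHC class I genes, by 0.16 ± 0.14 (SE).

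In the base of the cap, 8 of 9 genes were higher in Balb/cBy, with a median of 0.10, and all groups overlapped. Among the ATPases that unfold substrates, Psmc2 (Rpt1) differed by 0.17 ± 0.14 (SE) and Psmc5 (Rpt6) by 0.14 ± 0.11 (SE). The other probe set of Psmc2, with a mean of 7.13 under the olfactory receptor level, differed by 0.05 ± 0.09 (SE). Psmc6 (Rpt4) was the gene with a lower mean in Balb/cBy, at -0.08 ± 0.23 (SE). Balb/c replicate 3 read 10.34 there, above the 9.31 to 9.77 of the other mice, and without it the difference was 0.20. Psmd4 (Rpn10), a ubiquitin receptor, differed by 0.11 ± 0.10 (SE). Psmd1 (Rpn2), a scaffold subunit, read 10.76, 10.66 and 10.37 in Balb/cBy livers, against 10.45, 9.93 and 10.93 in Balb/c livers. The lowest and the highest of the 6 values were both from Balb/c mice, and the difference was 0.16 ± 0.23 (SE).

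In the lid, all 8 genes that match the symbol rule were higher in Balb/cBy, with a median of 0.13 and differences from 0.02 to 0.30. Sem1, a lid subunit outside the rule, read 8.81, 9.31 and 9.27 in Balb/cBy livers, against 9.27, 9.37 and 9.17 in Balb/c livers. Its mean was lower in Balb/cBy, and the groups overlapped. Psmd13 (Rpn9), a structural subunit, read 9.77, 9.91 and 9.86 in Balb/cBy livers and 9.71, 9.53 and 9.41 in Balb/c livers. Every Balb/cBy mouse was above every Balb/c mouse. The difference was 0.30 ± 0.11 (SE), a level 1.23 times that of Balb/c, with an unadjusted p of 0.0229 and an adjusted p of 0.999 in limma. It had the smallest p of the 49 members and ranked 335th of 22180 genes.

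Psmd14 (Rpn11), the deubiquitinase that cuts ubiquitin chains from arriving substrates, had the widest interval of the lid genes. It read 9.77, 9.53 and 9.20 in Balb/cBy livers, against 9.31, 8.74 and 9.83 in Balb/c livers, and differed by 0.21 ± 0.26 (SE). Balb/c mice again gave both the lowest and the highest value. Psmd3 (Rpn3) differed by 0.17 ± 0.10 (SE) and Psmd8 (Rpn12) by 0.11 ± 0.10 (SE). Without Balb/c replicate 2 the median was 0.0088 for the lid and 0.024 for the base. Without Balb/cBy replicate 2 it was 0.078 for the lid and 0.034 for the base.

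Which mouse was lowest differed between the constitutive genes and all genes. Balb/c replicate 2 was the lowest of the 6 arrays in 12 of the 17 cap genes and in 25 of the 49 members, and in 17.3% of all genes. Balb/cBy replicate 2 was the highest in 8 of the 17 cap genes and in 18 of the 49 members, and in 21.7% of all genes. Balb/c replicate 3 was the highest in 8 of the 17 cap genes and the lowest in 3. The base averaged 0.01, 0.14 and -0.04 in Balb/cBy livers and -0.04, -0.24 and 0.17 in Balb/c livers, relative to the mean of the 6 arrays. The lid averaged 0.03, 0.15 and 0.02 in Balb/cBy livers and 0.0057, -0.28 and 0.07 in Balb/c livers. Within Balb/c, the mouse that was low in the cap was high in the immunoproteasome, and the mouse that was high in the cap was low in the immunoproteasome. This did not hold within Balb/cBy, where replicate 2 was the highest in the base, the lid and the immunoproteasome.

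**Figure D3:**
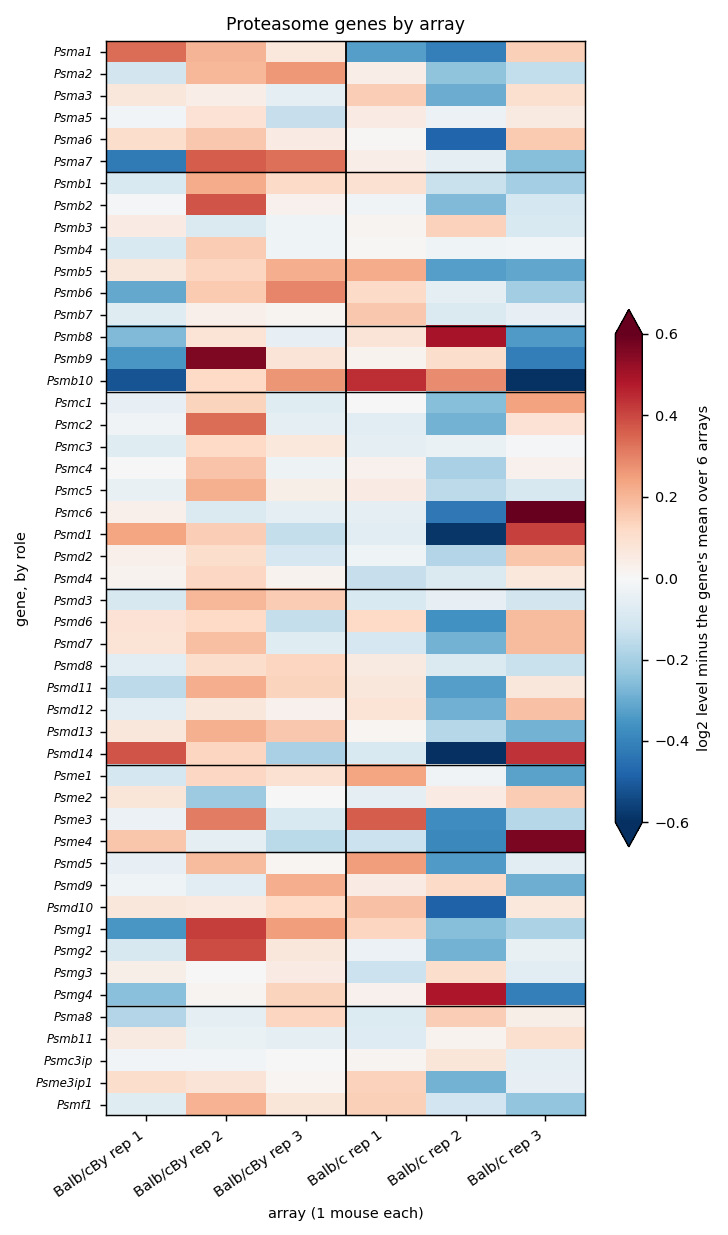
Log2 level of each of the 49 members on each array (columns, 1 mouse each, Balb/cBy on the left) minus the mean of that gene over the 6 arrays (colour, cut at 0.6 in either direction), with black lines between roles. The column of Balb/c replicate 2 is blue in most cap genes and red in Psmb8 and Psmb10, and the column of Balb/c replicate 3 is red in Psmc6, Psmd1 and Psmd14 and blue in all 3 immunoproteasome genes.

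Among the activators, 2 of 4 genes were higher and 2 lower in Balb/cBy, with a median of 0.02, which turned to -0.066 without Balb/c replicate 2 and to -0.0072 without Balb/cBy replicate 2. Psme1 and Psme2 encode PA28α and PA28β, the interferon-inducible cap that opens the core without ATP. Psme1 read 10.31, 10.54 and 10.51 in Balb/cBy livers, against 10.66, 10.40 and 10.10 in Balb/c livers, and differed by 0.07 ± 0.15 (SE). Psme2 read 8.88, 8.59 and 8.81 in Balb/cBy livers, against 8.75, 8.86 and 8.96 in Balb/c livers, and differed by -0.10 ± 0.11 (SE). The partners did not share an order over the mice: Balb/c replicate 3 was lowest for Psme1 and highest for Psme2. The near copy Psme2b and a probe set that Psme2 shares with other symbols make the level of Psme2 uncertain. Psme3, the nuclear activator PA28γ, differed by 0.12 ± 0.19 (SE), and Psme4, the activator PA200, by -0.03 ± 0.23 (SE).

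Of the assembly chaperones, 6 of 7 were higher in Balb/cBy, with a median of 0.10. Psmg1 and Psmg2 encode a pair that guides the alpha ring together. Psmg1 read 8.39, 9.15 and 8.99 in Balb/cBy livers, against 8.87, 8.48 and 8.54 in Balb/c livers, and differed by 0.21 ± 0.20 (SE). Balb/cBy replicate 1 was the lowest of all, and the difference was 0.44 without it and 0.058 without Balb/cBy replicate 2. Psmg2 read 8.98, 9.47 and 9.15 in Balb/cBy livers, against 9.05, 8.80 and 9.04 in Balb/c livers, and differed by 0.24 ± 0.14 (SE). Its other probe set, with a mean of 6.88 under the olfactory receptor level, differed by -0.02 ± 0.09 (SE). Psmg3 and Psmg4, the second pair, and Psmd5, Psmd9 and Psmd10, which assemble the base, had overlapping groups. Psmf1, the proteasome-binding protein PI31, differed by 0.14 ± 0.13 (SE).

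Tissue-restricted members lay at the level of background. Psma8, the testis form of an alpha subunit, and Psmb11, the catalytic subunit of the thymus cortex, both lay under the olfactory receptor level, with means of 7.15 and 7.50 in Balb/cBy livers and 7.22 and 7.53 in Balb/c livers. Psmc3ip was also under it. Psme3ip1 lay above it and differed by 0.13 ± 0.12 (SE).

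**Figure D4:**
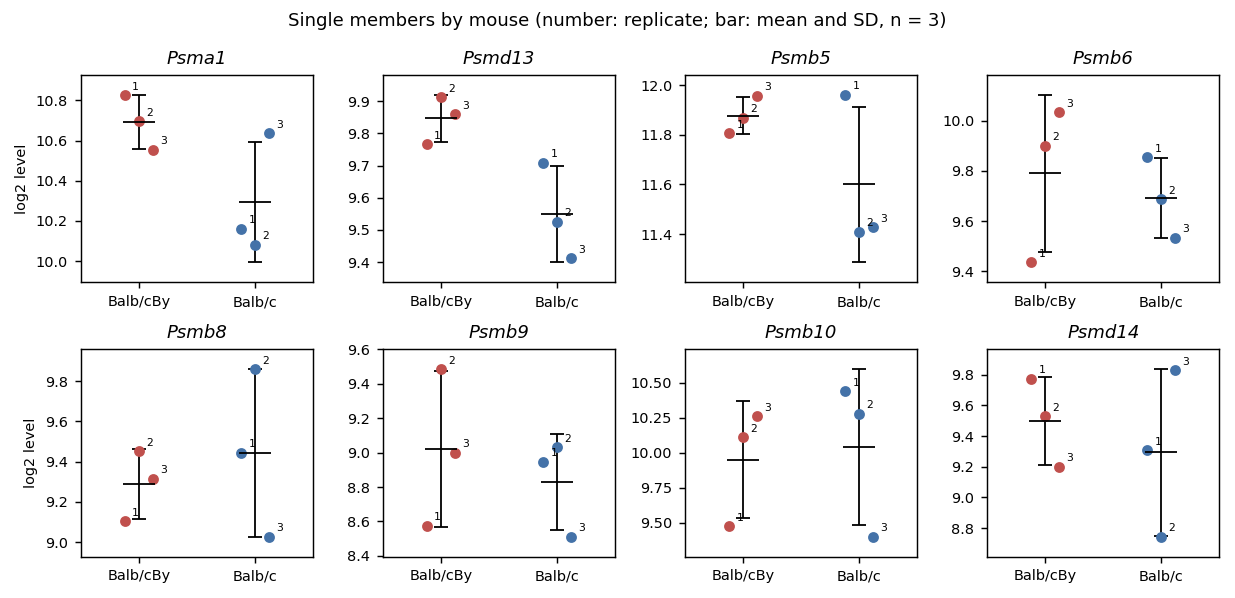
Log2 level of 8 members in each mouse (points, numbered by replicate; Balb/cBy red, Balb/c blue), with the group mean and SD (black, n = 3); each panel has its own scale, which does not start at 0. Psmd13 is the panel in which the groups do not overlap, and Psmb8, Psmb9 and Psmb10 share their lowest mice, Balb/c replicate 3 and Balb/cBy replicate 1.

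A list of factors that bind the proteasome, which also holds the subunit Sem1, was split in direction. Of 11 measured genes of 13 listed, 5 were higher and 6 lower, with a median of -0.09. Zfand5, a zinc finger protein that stimulates the proteasome, read 9.66, 9.80 and 9.60 in Balb/cBy livers and 9.88, 9.94 and 10.35 in Balb/c livers, all Balb/cBy mice below all Balb/c mice. It differed by -0.37 ± 0.14 (SE), with an unadjusted p of 0.0272 and an adjusted p of 0.999 in limma. Without Balb/c replicate 3 the difference was -0.22. Zfand2a, a stress-induced relative, differed by 0.23 ± 0.14 (SE), Akirin2, which guides proteasomes into the nucleus, by -0.13 ± 0.09 (SE), and the maturation factor Pomp by -0.10 ± 0.10 (SE).

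Genes of the Nfe2l1 route were measured for 8 of 9, 4 higher and 4 lower, with a median of 0.0049. Nfe2l1 itself read 9.79, 9.92 and 9.75 in Balb/cBy livers, against 9.83, 9.82 and 9.91 in Balb/c livers, and differed by -0.03 ± 0.09 (SE). Its interval of -0.24 to 0.18 bounds the transcript, while the factor is known to be controlled after translation. Mafg, a small Maf partner, differed by -0.17 ± 0.11 (SE), Ngly1, the glycanase that processes Nfe2l1, by -0.18 ± 0.21 (SE), and Vcp, the segregase that extracts it from the membrane, by 0.11 ± 0.15 (SE). Of 11 ubiquitin and shuttle genes 5 were measured, 3 higher and 2 lower. Ubqln4 differed by 0.16 ± 0.12 (SE), Uba6, a ubiquitin-activating enzyme, by 0.11 ± 0.18 (SE), and Ubqln1, a shuttle receptor, by 0.07 ± 0.11 (SE).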

How the data were processed

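Liver RNA of 6 mice was hybridised to Affymetrix whole-transcript arrays, 500 ng of total RNA per array by the WT PLUS kit, per the labels' protocols. The deposited values are log2 levels, 1 per probe set and array, made by the authors with RMA per the submitters' processing notes; neither a software version nor a genome build is given in the sources used here. Of 41345 probe sets, 23521 with 1 gene symbol in the platform annotation were tested. Titles gave each array its substrain. limma 3.58.1 in R 4.3.3 fitted the group to every probe set with empirical Bayes moderation; its two-sided p-values were adjusted by Benjamini-Hochberg over these 23521 and called at 0.05. The code was tested on simulated data. Differences are Balb/cBy minus Balb/c with the moderated SE. Arrays of a group are biological replicates per the labels, and the number of arrays limits the precision: 3 against 3 allow no permutation p below 0.1.

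The members and lists were chosen with earlier results of these data known. All members could be named; those with a difference larger than its SE, the catalytic and activator genes, and a few that illustrate the spread were given one by one, a choice made after their values were seen. Of each context list the 3 genes of smallest p were named, with Tap1, Tap2, Nfe2l1, Pomp and Sem1. The alternatives were array weights, moderation with a trend and robust or left out, blocks by replicate number, median centring, a renewed quantile normalization, brighter probe sets, averaged probe sets, every probe set, and leaving out arrays. No measure of detection was used here, so the olfactory receptor level, chosen after the data were seen, stands in for one.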

Additional observations from a re-analysis of the deposited data

How the results depend on the processing

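No member passed the adjusted test under any of the 16 alternatives, where the smallest adjusted p of a member in limma was 0.312. Of 780 pairs of a member and an alternative, 721 kept their sign, and 22 of the 49 members never changed it. Over all tested probe sets, where 0 passed, array weights gave 31, leaving out both arrays of lowest weight 16, and leaving out 1 array 0 to 4. The count of members higher at an unadjusted p under 0.05, which was 2, became 1 with trend and robust moderation, 1 without moderation, 4 with array weights, 1 with renewed quantile normalization, 5 without both arrays of lowest weight, and 0 to 7 without 1 array. The replicate number as a block gave 0 such members and 0 probe sets past the adjusted test. Deviations from the group mean correlated at -0.32, -0.19 and -0.23 in same-numbered mice, and at 0.0072 to 0.22 in mice of unlike number. Within a group of 3 the deviations sum to 0, so these correlations cannot show whether the numbers pair the samples. The median of the beta ring ran from 0.023 to 0.25 and that of the assembly chaperones from 0.072 to 0.25 without 1 array. The cause of these shifts was not tested.

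Of the genes described one by one, those whose difference changed sign when 1 array was left out ran, from lowest to highest, as follows: Psma5 -0.10 to 0.013, Psmb10 -0.41 to 0.15, Psmb6 -0.024 to 0.27, Psmb7 -0.065 to 0.058, Psmb8 -0.36 to 0.055, Psmb9 -0.041 to 0.41, Psmd1 -0.089 to 0.41, Psmd14 -0.068 to 0.48, Psme1 -0.073 to 0.21, Psme3 -0.033 to 0.33, Psme4 -0.24 to 0.24, Uba6 -0.026 to 0.32, Ubqln1 -0.014 to 0.14, Ngly1 -0.43 to 0.035, Vcp -0.0010 to 0.26, Tap1 -0.15 to 0.14, Tap2 -0.097 to 0.084, Nfe2l1 -0.083 to 0.0039, Psmc6 -0.31 to 0.20, Psma8 -0.15 to 0.00014, Psmb11 -0.074 to 0.014. With array weights Psme1 was -0.0032, Psme3 -0.090, Psma8 0.056 and Tap2 0.041. Without both arrays of lowest weight Psmc6 was 0.17, Psma8 0.000725, Psme1 -0.0018, Psme4 0.15, Ngly1 0.038 and Nfe2l1 0.012. With renewed quantile normalization Ubqln1 was -0.0017 and Tap1 -0.079, with median centring Tap2 was 0.0026, and with averaged probe sets Psma5 was 0.068 and Vcp -0.043. The other members whose differences are given kept their sign in every alternative run, and of these the following moved by over 1.5 times without 1 array: Psma6 0.024 to 0.34, Psma7 0.043 to 0.44, Psmb1 0.093 to 0.25, Psmb2 0.14 to 0.33, Psmb5 0.18 to 0.46, Psmc2 0.050 to 0.26, Psmc5 0.062 to 0.19, Psmd3 0.11 to 0.26, Psmd4 0.066 to 0.17, Psmd8 0.073 to 0.18, Psme2 -0.16 to -0.014, Psmf1 0.056 to 0.25, Psmg1 0.058 to 0.44, Psmg2 0.11 to 0.35, Psme3ip1 0.018 to 0.23. Members whose single differences are not given also changed sign without 1 array. They were Psma3, Psmb3, Psmb4, Psmc1, Psmc3ip, Psmd2, Psmd5, Psmd6, Psmd9, Psmd10, Psmd11, Psmd12 and Psmg4. Signal near background limits Psma5, Psma8, Psmb11 and Psmc3ip.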
